A study of Mus musculus with 36 samples.

Results

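Messenger RNA splicing is carried out by a machine built from small nuclear RNAs, the proteins bound to them and a large set of RNA-binding regulators, and 106 genes that encode such proteins were followed here in mouse muscle stem cells (MuSCs). They are the genes, of 11337 measured, whose symbols belong to the hnRNP, Srsf, Sf1, Sf3a, Sf3b, U2af, Rbm, Prpf, Snrp, Celf, Mbnl, Rbfox or Ptbp series. By symbol they fall into 20 hnRNP genes, 10 SR protein genes, 12 genes of branch point and 3′ splice site recognition, 12 genes of Sm and other small nuclear ribonucleoprotein (snRNP) proteins, 13 Prpf genes, 29 Rbm genes and 10 genes of the Celf, Mbnl, Rbfox and Ptbp regulators. The choice rests on names alone, so some Rbm members may act outside splicing.

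The study sequenced polyadenylated RNA of 36 MuSC samples, each sorted from the hindlimb muscle of 1 male C57BL6 mouse, in 2 cohorts. In the running wheel cohort, 18-month-old (O) and 3-month-old (Y) mice lived for 3 weeks with a wheel that turned freely (+Ex) or was locked (-Ex). It holds 5 O(+Ex), 7 O(-Ex), 3 Y(+Ex) and 6 Y(-Ex) libraries, whose cells were sorted as DAPI-, CD31-, CD45-, Sca1- and VCAM+. In the Ccnd1 cohort every mouse carried Pax7_CreERT2, which expresses a tamoxifen-dependent recombinase from the gene of the MuSC factor Pax7, and the recombination reporter R26R_YFP. All of them received tamoxifen, and YFP+, DAPI- cells were sorted 6 weeks later. This cohort holds 5 Y(KO) libraries with Ccnd1 flox/flox, 4 Y(HET) libraries with Ccnd1 +/flox, 3 O(WT) libraries and 3 Y(WT) libraries, both with Ccnd1 +/+. The labels do not give the share of MuSCs that recombined. Ccnd1 encodes cyclin D1, a partner of the cell cycle kinases Cdk4 and Cdk6.

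As background, the U1, U2, U4, U5 and U6 snRNPs recognise the ends of an intron and its branch point and catalyse its removal. Around most of the small nuclear RNAs sits a ring of the Sm proteins B, D1, D2, D3, E, F and G, while SF1, the U2AF pair and the SF3A and SF3B complexes mark the branch point and the 3′ splice site. SR proteins mostly promote the use of nearby splice sites, hnRNP proteins often repress it, and the MBNL, CELF, RBFOX and PTBP families set tissue-specific splicing in muscle and brain.

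Values are RPKM, the reads of a gene scaled to the length of its exons and to the size of the library, so they measure the amount of RNA of a gene and not which isoform was made. The authors' table had been adjusted before deposit: 6 directions of variation between libraries are missing from it. The adjustment may tie the 2 cohorts together, so they are not taken as separate measurements of age. With Y(WT) merged into Y(-Ex) and O(WT) into O(-Ex), the table holds 24 directions within the 6 merged groups, where 30 would be expected. The same count was not made with these groups left unmerged. The fits below keep these groups apart, and count residual degrees of freedom as if no direction had been removed. All adjusted p-values and counts of called genes rest on this, and its effect on them was not tested. The depth of each library cannot be read from the values; the labels give it only as a range shared by all libraries. Ccnd1 itself lay at 2.07 to 3.4 RPKM in Y(KO), 6.37 to 8.13 RPKM in Y(HET) and 10.6 to 13.3 RPKM in Y(WT) libraries, with no overlap between these groups. All 9 MuSC markers looked for were measured, with a summed level of 2120 to 3580 RPKM over the 36 libraries. The 4 Y(HET) libraries stood apart in keratinocyte markers (Krt1, Krt5, Krt10 and Krt14), whose sum was 52.7 to 145 RPKM in Y(HET), 1.83 to 2.68 RPKM in Y(KO) and 1.48 to 2.07 RPKM in Y(WT) libraries. Myofibre markers, of which 5 of 7 were measured, summed to 37.7 to 145 RPKM in O(-Ex) and 109 to 614 RPKM in Y(-Ex) libraries. The 4 fibro-adipogenic markers summed to 172 to 244 RPKM in O(-Ex) and 106 to 139 RPKM in Y(-Ex) libraries.

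Promoter sequences were at hand for 89 of the 106 genes (RefSeq, GRCm38.p6, from 250 bases before to 50 bases after the annotated start). The 6 below show the 150 bases before the start of genes that carry the results: 3 Sm genes that were higher with age and in Y(KO), Mbnl1, which was lower in the same comparisons, and Srsf1 and Srsf7, which were lower after wheel running. They are printed 5′ to 3′ on the strand of the gene, and capitals mark every match, on either strand, to 5 motifs: CCAAT (the box of that name), GGGCGG (the GC box), CCGGAAG (a site of ETS factors), CACGTG (the E-box) and TATAAA (the core promoter box named for its first letters).
Snrpd2, chr7:19149688-19149837, plus strand: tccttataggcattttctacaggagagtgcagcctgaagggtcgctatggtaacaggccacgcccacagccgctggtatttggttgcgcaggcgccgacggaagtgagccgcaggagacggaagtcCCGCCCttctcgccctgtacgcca
Snrpg, chr6:86371390-86371539, plus strand: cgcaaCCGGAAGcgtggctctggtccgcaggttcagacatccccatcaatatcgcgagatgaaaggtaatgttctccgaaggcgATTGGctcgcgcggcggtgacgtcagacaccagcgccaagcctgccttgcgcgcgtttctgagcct
Snrpe, chr1:133610281-133610430, minus strand: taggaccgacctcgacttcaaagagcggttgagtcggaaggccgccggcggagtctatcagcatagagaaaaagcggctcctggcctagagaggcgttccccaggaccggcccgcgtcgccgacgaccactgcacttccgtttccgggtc
Mbnl1, chr3:60472680-60472829, plus strand: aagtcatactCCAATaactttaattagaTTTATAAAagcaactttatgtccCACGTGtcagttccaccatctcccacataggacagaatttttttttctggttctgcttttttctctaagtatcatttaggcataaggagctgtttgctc
Srsf1, chr11:88047223-88047372, plus strand: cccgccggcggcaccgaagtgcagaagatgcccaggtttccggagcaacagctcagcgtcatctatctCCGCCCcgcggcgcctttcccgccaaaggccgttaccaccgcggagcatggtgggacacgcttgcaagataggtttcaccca
Srsf7, chr17:80207306-80207455, minus strand: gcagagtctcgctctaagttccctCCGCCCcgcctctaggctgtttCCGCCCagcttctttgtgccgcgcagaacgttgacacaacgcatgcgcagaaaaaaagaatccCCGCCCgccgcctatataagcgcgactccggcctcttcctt

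Srsf7 holds 3 GC boxes in this window, at 126, 104 and 41 bases before the start, and Snrpe holds none of the 5 motifs. Mbnl1 holds TATA boxes on both strands that overlap each other, a CCAAT box and an E-box. Over the full 300 bases, CCAAT occurred in 48.3% of the 89 promoters against 38.3% of the 8689 promoters of measured genes and 37.9% of all 27025 promoters. The GC box occurred in 59.6% of the promoters of splicing factor genes, against 66.5% of measured genes and 35.9% of all promoters. For the ETS site the shares were 24.7%, 18.7% and 9.12%, for the E-box 13.5%, 10.7% and 7.24%, and for the TATA box 12.4%, 7.07% and 14.2%, in the same order. Families differed in base composition: the median GC content was 68.7% in the 10 SR promoters and 54.7% in 10 Sm and snRNP promoters, with 35 and 19 CpG sites per promoter. These are descriptions of letters in a window, and no binding was measured.

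The splicing factor genes were well expressed in MuSCs. Their mean level over the 36 libraries ran from 0.801 RPKM (Rbfox1) to 304 RPKM (Srsf5) with a median of 17.1 RPKM, against a median of 6.12 RPKM over all genes. The mean was above 1 RPKM for 105 of them and at least 5 RPKM for 93, and 103 stayed above 1 RPKM in all 36 libraries. Together they made up 1.3 to 1.56% of the RPKM sum of a library. Within groups the standard deviation (SD) of their log2 RPKM had a median of 0.15, against 0.21 for all genes.

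The highest levels belonged to SR and hnRNP genes (see the plot of mean levels by family). Srsf5 averaged 304 RPKM and Srsf7 296 RPKM, and both encode SR proteins that bind exons. Hnrnpa2b1 averaged 301 RPKM and Hnrnpk 218 RPKM; the first encodes a splicing repressor that also binds RNA for transport, the other a protein that binds C-rich RNA. Among the snRNP genes, Snrpb, which encodes Sm protein B, averaged 199 RPKM, and Snrpd1, which encodes Sm D1, 71.3 RPKM. U2af1, which encodes the U2AF subunit that reads the AG at the end of an intron, averaged 182 RPKM, and Sf3b1, which encodes the SF3B subunit at the branch point, 80.9 RPKM. Rbm39, a cofactor related to U2AF, led the Rbm genes at 121 RPKM, ahead of Rbm7, an adaptor of the nuclear exosome, at 42 RPKM. Levels of Prpf genes were lower, with the highest in Prpf38a at 27.8 RPKM and Prpf6, which encodes a protein that bridges the U4/U6 and U5 snRNPs, at 26 RPKM.

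**Figure D1:**
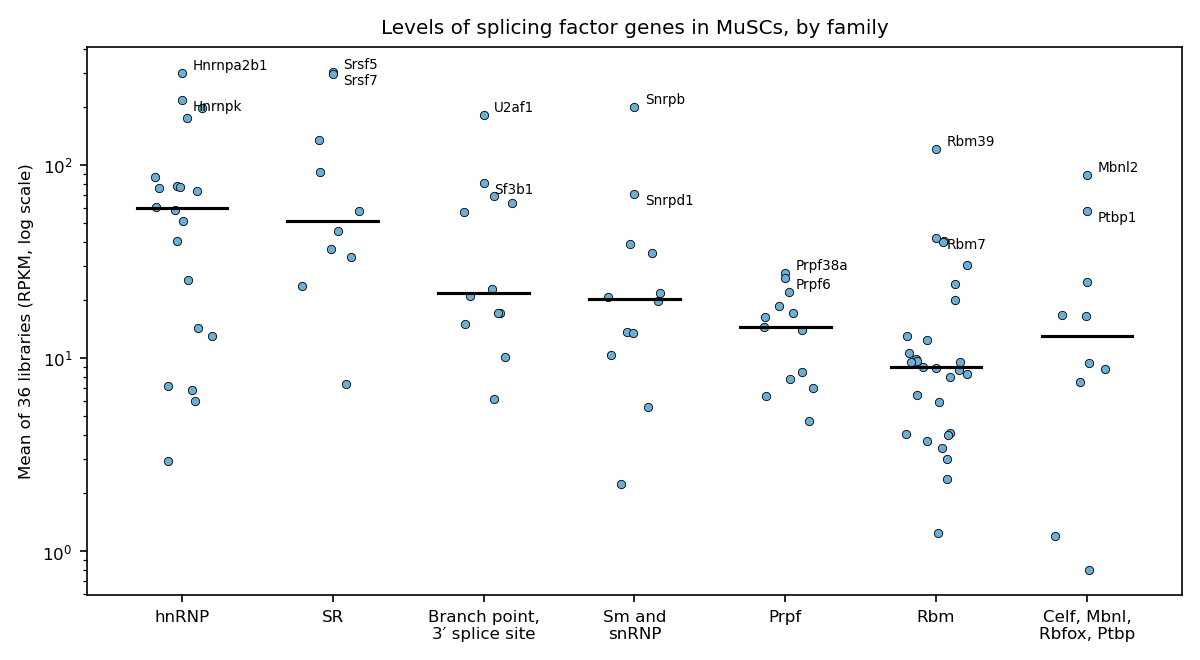
Each point is 1 splicing factor gene, placed by its mean RPKM over the 36 libraries (log axis) within its family; black bars are family medians and the 2 highest genes of each family are named. Srsf5, Hnrnpa2b1 and Srsf7 lie near 300 RPKM, and the lowest gene, Rbfox1, lies at 0.801 RPKM.

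Among the tissue-specific regulators, Mbnl2 (89.1 RPKM) and Ptbp1 (58.2 RPKM) were the most abundant. Ptbp1 encodes the polypyrimidine tract binding protein of most tissues, and its neuronal relative Ptbp2 lay lower, at 7.38 ± 0.537 RPKM in O(-Ex) and 7.78 ± 0.662 RPKM in Y(-Ex) libraries (SD, n = 7 and 6). Ptbp3 averaged 23.7 ± 2.79 RPKM in O(-Ex) and 26.1 ± 2.78 RPKM in Y(-Ex) libraries, and Celf1, which encodes a CUG-binding protein, 16.4 ± 1.17 and 17.5 ± 1.04 RPKM in these groups. Celf2, its closest relative, averaged 9.89 ± 0.58 RPKM in O(-Ex) and 8.88 ± 0.871 RPKM in Y(-Ex) libraries. Celf4 stayed between 0.611 and 1.86 RPKM, near the lowest level of the set.

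Age was compared in the wheel cohort between O(-Ex) and Y(-Ex) mice, both with locked wheels. Of the 106 genes, 42 were higher and 9 lower in O(-Ex) (limma over all genes, Benjamini-Hochberg adjusted p under 0.05). That is 48.1% of the splicing factor genes called, where 38.3% of all genes were called, 20.5% as higher and 17.8% as lower. Their median log2 change was 0.10, against 0.01 over all genes. By family, 10 of 12 Sm and snRNP genes were higher and none was lower, with a median log2 change of 0.38. In the other families the higher and lower genes numbered 7 and 0 of 20 for hnRNP, 4 and 0 of 10 for SR, 5 and 0 of 12 for branch point and 3′ splice site, 7 and 2 of 13 for Prpf, 8 and 5 of 29 for Rbm, and 1 and 2 of 10 for Celf, Mbnl, Rbfox and Ptbp genes. In these bulk samples a smaller number of cells of a type and less RNA per cell cannot be told apart. The myofibre and fibro-adipogenic marker sums given above move with age, 4 of the 9 MuSC markers were lower and 1 was higher, and the keratinocyte markers summed to 2.79 to 5.7 RPKM in O(-Ex) and 1.59 to 2.47 RPKM in Y(-Ex) libraries. The 4 pericyte and smooth muscle markers summed to 148 to 202 RPKM in O(-Ex) and 221 to 332 RPKM in Y(-Ex) libraries, without overlap. Their directions were mixed, with 1 called as higher, 1 as lower and a median log2 change of 0.04. Of the Schwann markers 2 of 4 were higher, and of the endothelial markers 1 of 5. The part of these markers in these counts was not tested.

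**Figure D2:**
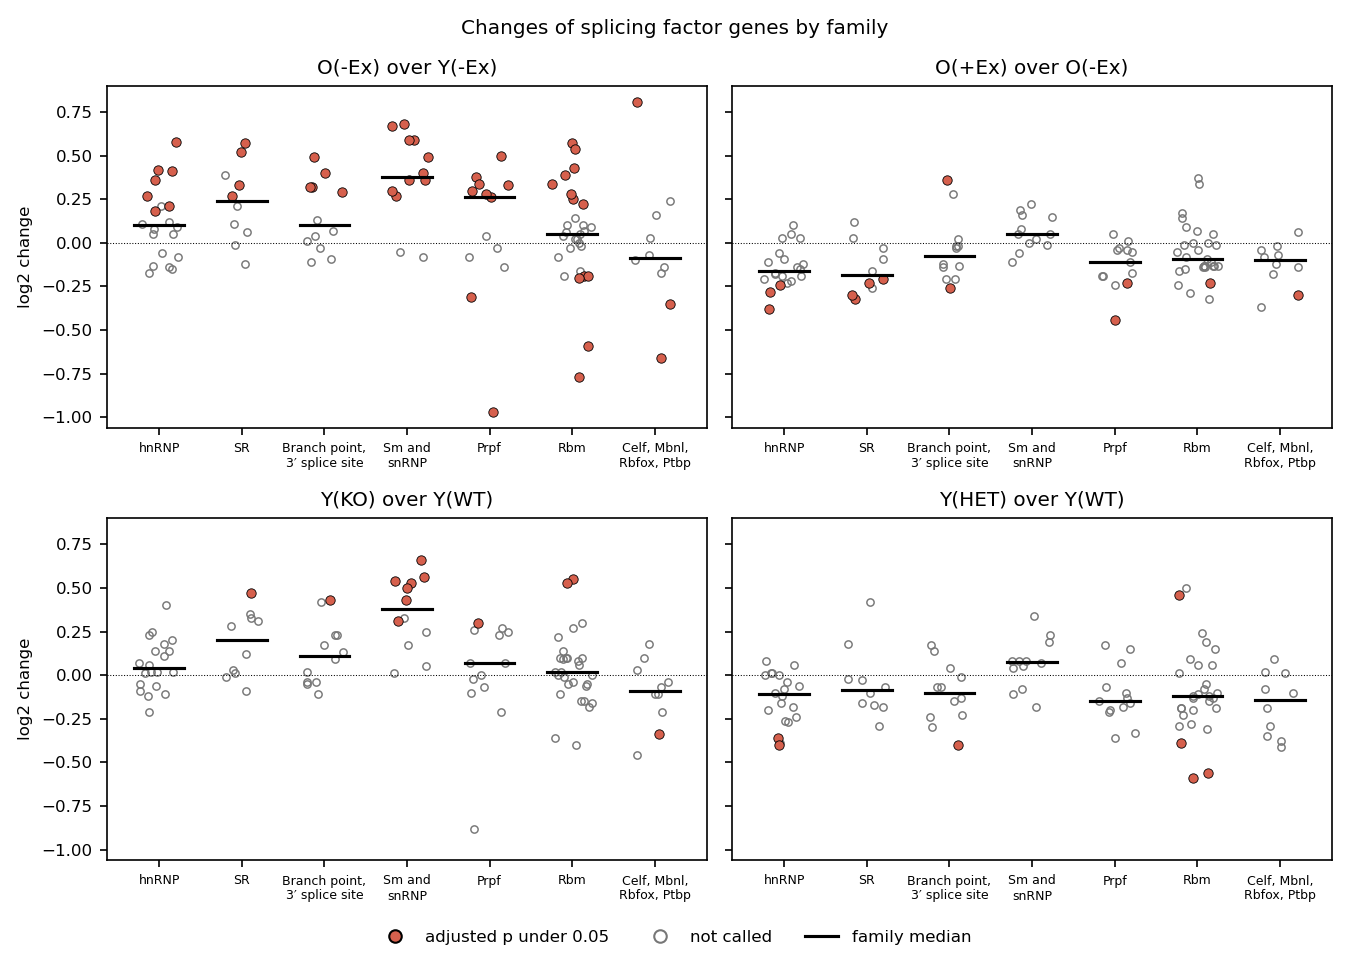
Each point is 1 splicing factor gene, placed by its log2 change (vertical axis) within its family in 4 comparisons, tested over compared group as written above each panel; filled points have an adjusted p under 0.05 in limma and black bars are family medians. The Sm and snRNP family has a median of 0.38 both for O(-Ex) over Y(-Ex) and for Y(KO) over Y(WT), and 0.05 for O(+Ex) over O(-Ex).

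All 7 Sm ring genes were higher in O(-Ex) than in Y(-Ex) libraries, with log2 changes of 0.36 to 0.68. Snrpd1 measured 74.7, 89 and 95.9 RPKM (lowest, median and highest) in O(-Ex) and 47.9, 55.1 and 63.8 RPKM in Y(-Ex) libraries, a log2 change of 0.68 ± 0.08 (SE; adjusted p = 1.9e-06). Snrpd2, which encodes the ring neighbour of D1, measured 14.8, 15.6 and 17.1 RPKM in O(-Ex) and 9.06, 10.5 and 13.2 RPKM in Y(-Ex) libraries (log2 change 0.59 ± 0.08, adjusted p = 4.4e-06). In both genes every O(-Ex) library lay above every Y(-Ex) library. Such a separation in this direction was found for 22 of the 106 genes (20.8%), against 6.96% of all genes. The share was not counted for the opposite direction, for wheel running or for the Ccnd1 genotypes. A lack of overlap given for a gene there describes a gene picked as called. Snrpg, the gene of Sm G, measured 20.5, 23.7 and 25.5 RPKM in O(-Ex) and 14.2, 15.2 and 18.5 RPKM in Y(-Ex) libraries (log2 change 0.59 ± 0.07, adjusted p = 1.6e-06). Snrpf, the gene of Sm F, measured 12.1, 16.9 and 18.7 RPKM in O(-Ex) and 8.86, 10.3 and 11.6 RPKM in Y(-Ex) libraries (log2 change 0.67 ± 0.09, adjusted p = 1.3e-05). These also did not overlap, but 85.4% of the Snrpf exon bases are covered by exons of genes on the opposite strand, and the strand setting of the counting is not known, so its level is uncertain. Snrpe (Sm E) averaged 21.9 ± 1.55 RPKM in O(-Ex) and 15.7 ± 1.97 RPKM in Y(-Ex) libraries, with a log2 change of 0.49 ± 0.08 (adjusted p = 9.1e-05). For Snrpb (Sm B) the means were 223 ± 18.9 and 173 ± 8.33 RPKM, with a log2 change of 0.36 ± 0.06 (adjusted p = 3.7e-05). Snrpn, the gene of the brain-enriched form of Sm B, showed no call (log2 change -0.08 ± 0.14) at a level of about 2 RPKM. Sm genes have processed copies elsewhere in the genome, and how reads shared with such copies were counted is not known from the files or labels.

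**Figure D3:**
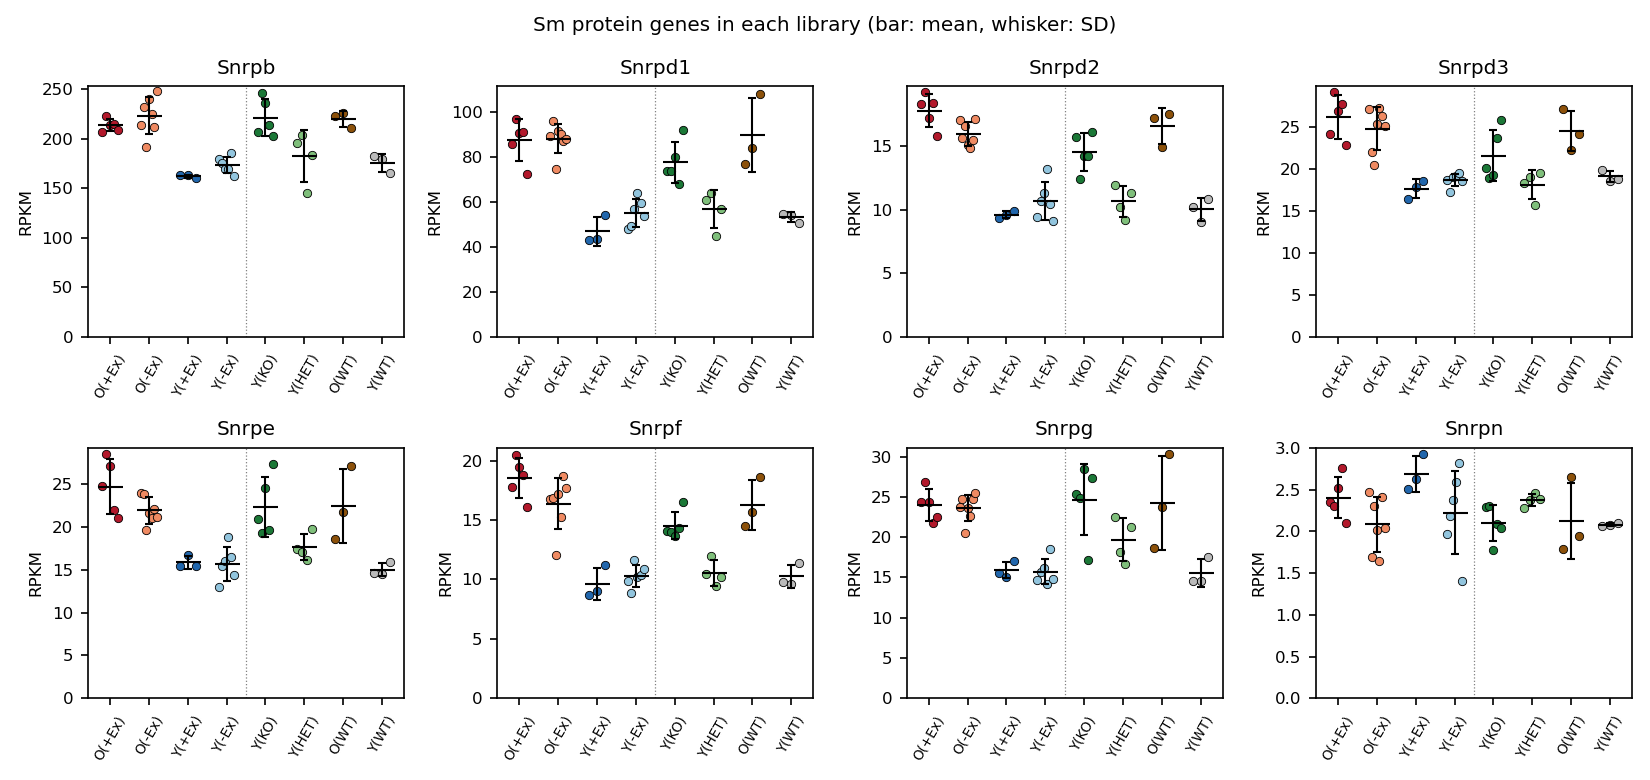
Each panel shows the RPKM (linear axis from 0) of 1 Sm gene in every library of the 8 groups, with the mean as a bar and the SD as whiskers; the dotted line separates the wheel cohort on the left from the Ccnd1 cohort on the right. Snrpd1 runs from 74.7 to 95.9 RPKM in O(-Ex) and from 47.9 to 63.8 RPKM in Y(-Ex) libraries, and Snrpn shows no such step.

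The Snrp series also holds 4 genes for U1 or U2 snRNP proteins outside the Sm ring. Of these, Snrpc (log2 change 0.30 ± 0.07), Snrpa1 (0.27 ± 0.07) and Snrpb2 (0.36 ± 0.09) were higher in O(-Ex) libraries, and Snrpa (-0.05 ± 0.06, adjusted p = 0.55) was not called. At the branch point and 3′ splice site, Sf3b6, whose product contacts the branch point adenosine, had a log2 change of 0.49 ± 0.05 (adjusted p = 9.1e-07). Sf3a3 (0.40 ± 0.08), Sf3b4 (0.32 ± 0.07), U2af1 (0.32 ± 0.06) and Sf3b5 (0.29 ± 0.09) were higher too. The large scaffold gene Sf3b1 was not called, with 82.2 ± 4.25 RPKM in O(-Ex) and 84.2 ± 7.72 RPKM in Y(-Ex) libraries. Neither was U2af2, the gene of the U2AF subunit that binds the polypyrimidine tract (log2 change 0.04 ± 0.06).

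Among SR genes, Srsf2 measured 92.8, 114 and 135 RPKM in O(-Ex) and 70.2, 74.7 and 80.8 RPKM in Y(-Ex) libraries, without overlap (log2 change 0.57 ± 0.07, adjusted p = 2.4e-06). Srsf1, the prototype of the family, measured 39.4, 44.3 and 55.6 RPKM in O(-Ex) and 28, 32.7 and 35.7 RPKM in Y(-Ex) libraries, again without overlap (log2 change 0.52 ± 0.08, adjusted p = 3.7e-05). Srsf7 averaged 348 ± 15 RPKM in O(-Ex) and 277 ± 12.3 RPKM in Y(-Ex) libraries, and Srsf11 was the fourth SR gene called. Srsf5, the most abundant member, was not called: 303 ± 26.6 RPKM in O(-Ex) and 328 ± 22.5 RPKM in Y(-Ex) libraries. Exons of genes on the opposite strand cover 25.3% of the Srsf2 exon bases, so its level is uncertain as well.

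The hnRNP gene with the widest difference was Hnrnpab, whose product binds AU-rich RNA. It measured 79.5, 98.5 and 108 RPKM in O(-Ex) and 57, 65.6 and 73.8 RPKM in Y(-Ex) libraries, without overlap (log2 change 0.58 ± 0.08, adjusted p = 5.7e-06), and 29.1% of its exon bases are shared with a gene on the opposite strand. Hnrnpf (0.42 ± 0.09), Hnrnpu (0.41 ± 0.08) and Hnrnpc (0.36 ± 0.07) followed on the log2 scale. For Hnrnpf, 26.5% of the exon bases are shared with genes on the opposite strand. Hnrnpk, the second most abundant hnRNP gene, was not called at 216 ± 24.2 RPKM in O(-Ex) and 225 ± 18.5 RPKM in Y(-Ex) libraries. Of the remaining families, Rbm17, whose product (SPF45) takes part in 3′ splice site choice, averaged 22.7 ± 1.81 RPKM in O(-Ex) and 15.3 ± 1.88 RPKM in Y(-Ex) libraries (log2 change 0.57 ± 0.09, adjusted p = 2.5e-05). Rbm34 had 7.17 ± 0.778 and 4.95 ± 0.759 RPKM in these groups (0.54 ± 0.11). Prpf31, whose product joins U4/U6 to U5, had a log2 change of 0.50 ± 0.09, and 18.1% of its exon bases are shared with a gene on the opposite strand.

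The clearest decrease with age was that of Mbnl1, the muscleblind gene that drives adult splicing patterns in muscle. It measured 10.6, 13.4 and 14.4 RPKM in O(-Ex) and 17.5, 20.5 and 23.8 RPKM in Y(-Ex) libraries, and the groups did not overlap. The log2 change was -0.66 ± 0.08 (adjusted p = 1e-06), and no omission of a library removed the call. Its paralogue Mbnl2, at several times the level, was not called, with 85.6 ± 10.1 RPKM in O(-Ex) and 96.3 ± 10.1 RPKM in Y(-Ex) libraries (log2 change -0.17 ± 0.08, adjusted p = 0.089). The difference between these changes was not tested.

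Rbfox2, which encodes a regulator of muscle and neural exons, measured 7.09, 8.05 and 10.3 RPKM in O(-Ex) and 8.31, 11 and 12.3 RPKM in Y(-Ex) libraries, with overlap (log2 change -0.35 ± 0.11, adjusted p = 0.014). Prpf18, the gene of a U5-associated factor of the catalytic step, measured 11.3, 12.7 and 14.3 RPKM in O(-Ex) and 14.8, 15.3 and 17.6 RPKM in Y(-Ex) libraries without overlap (-0.31 ± 0.07, adjusted p = 0.0025). Rbm5 (-0.20 ± 0.07), Rbm18 (-0.19 ± 0.07) and Rbm39 (-0.19 ± 0.07) were called with smaller changes, and these calls were lost in 4, 5 and 9 of 13 omissions of a single library. At low levels, Prpf19 (-0.97 ± 0.15), Rbm38 (-0.77 ± 0.22) and Rbm24 (-0.59 ± 0.19) were lower and Rbfox1 (0.81 ± 0.26) was higher in O(-Ex) libraries. Rbfox1 lay at 0.792, 1.24 and 1.27 RPKM in O(-Ex) and 0.325, 0.604 and 1.31 RPKM in Y(-Ex) libraries, with overlap.

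Other splicing genes, outside the symbol series above, were called as follows in the same comparison, where 20.5% of all genes were higher and 17.8% lower. Of 65 measured spliceosome components 30 were higher and 2 lower, with a median log2 change of 0.17; the 2 higher genes with the lowest p were Ddx23, a U5 helicase gene (1.74 ± 0.17), and Lsm2, a gene of the U6-binding Lsm ring (0.69 ± 0.09). Of 16 measured genes for snRNP assembly 7 were higher and 1 lower. Smn1, the gene of the SMN protein that loads the Sm ring (0.66 ± 0.10), and Wdr77, a gene of the methylosome that modifies Sm tails (0.58 ± 0.10), were higher, and Lsm10 (-0.50 ± 0.10) was lower. Of 54 measured other regulators 19 were higher, among them Pnn (0.45 ± 0.07) and Sfpq (0.61 ± 0.09), and 4 lower, among them Scaf1 (-0.42 ± 0.12). None of 9 measured SR protein kinase genes was higher, and 2 were lower, Clk1 (-0.44 ± 0.06) and Dyrk1b (-0.85 ± 0.22). In the exon junction complex and nonsense-mediated decay list of 14 genes, 5 were higher, led by Magohb (0.62 ± 0.09) and Magoh (0.45 ± 0.07), and 2 lower, among them Upf2 (-0.43 ± 0.10).

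The age comparison of the Ccnd1 cohort, O(WT) over Y(WT), holds 3 mice per group. There 18 of the 106 genes were higher and 3 lower, 19.8% in all, where 15.8% of all genes were called, 8.03% as higher and 7.76% as lower. Because the adjustment of the table may tie the cohorts together, these values are set beside the others and are not taken as a separate test of age. Of the 12 Sm and snRNP genes 7 were higher, with a family median log2 change of 0.41. Snrpd1 measured 76.8, 83.9 and 108 RPKM in O(WT) and 54.7, 54.3 and 50.7 RPKM in Y(WT) libraries (log2 change 0.74 ± 0.15, adjusted p = 0.0058). Snrpd2 measured 17.2, 14.9 and 17.5 RPKM in O(WT) and 10.2, 9.04 and 10.8 RPKM in Y(WT) libraries (0.73 ± 0.12, adjusted p = 0.0023). Neither gene overlapped between the groups. With 3 libraries per group, every O(WT) value lay above every Y(WT) value for 36 of the 106 genes (34.0%) and for 18.9% of all genes. Rbm34 (0.67 ± 0.13), Snrpf (0.66 ± 0.12), Snrpg (0.63 ± 0.19) and Snrpe (0.57 ± 0.15) were the next largest on the log2 scale among the called genes that averaged 5 RPKM or more, and the Snrpg and Snrpe calls were lost in 5 and 3 of 6 omissions of a library. Mbnl1 measured 11.7, 14 and 13 RPKM in O(WT) and 20.3, 20.7 and 21.7 RPKM in Y(WT) libraries, without overlap (-0.70 ± 0.10, adjusted p = 0.001). Prpf18 (-0.32 ± 0.10, adjusted p = 0.046) was called as lower, and each of the 6 omissions removed the call. The low-level gene Rbm24 (-0.60 ± 0.17) was the third. Markers of other cells moved with this comparison too. The fibro-adipogenic markers summed to 149 to 276 RPKM in O(WT) and 104 to 137 RPKM in Y(WT) libraries, without overlap. The pericyte and smooth muscle markers summed to 150 to 182 RPKM in O(WT) and 209 to 349 RPKM in Y(WT) libraries, and the keratinocyte markers to 2.39 to 10.6 RPKM in O(WT) and 1.48 to 2.07 RPKM in Y(WT) libraries, again without overlap. Of the 4 pericyte and smooth muscle markers 1 was called as lower, while the median log2 change of the 4 was -0.01. No keratinocyte marker was called. The MuSC markers Pax7 (-0.56 ± 0.14) and Itga7 (-0.64 ± 0.11) were lower in O(WT) libraries, and the part of these markers was not tested. The count of called genes fell to 10 without O(WT) replicate 3, 11 without Y(WT) replicate 1 or 3, and 12 without Y(WT) replicate 2.

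Wheel running was compared within each age. In old mice, O(+Ex) over O(-Ex), 1 splicing factor gene was higher and 12 were lower, 12.3% in all, where 7.39% of all genes were called, 4.09% as higher and 3.3% as lower. The median log2 change of the 106 genes was -0.10, against -0.01 over all genes. The 12 lower genes were 4 of 10 SR genes (Srsf1, Srsf5, Srsf7 and Srsf10), 3 of 20 hnRNP genes (Hnrnpa2b1, Hnrnpc and Hnrnph1), Prpf6, Prpf38a, U2af1, Ptbp1 and Rbm18. None of the 12 Sm and snRNP genes was called, with log2 changes of -0.11 to 0.22. The O(-Ex) libraries serve both this comparison and the age comparison above, so the changes of the 2 are not independent.

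Hnrnpa2b1 measured 246, 283, 251, 274 and 256 RPKM in the 5 O(+Ex) libraries and 304, 345 and 364 RPKM (lowest, median and highest) in O(-Ex) libraries, without overlap (log2 change -0.38 ± 0.06, adjusted p = 0.0015). Prpf6 measured 22.5, 18.7, 18.8, 21.4 and 19.2 RPKM in O(+Ex) and 23.6, 25.2 and 34.9 RPKM in O(-Ex) libraries, again without overlap (-0.44 ± 0.10, adjusted p = 0.011). Ptbp1 measured 46.2, 50.4, 55.2, 49.7 and 53.1 RPKM in O(+Ex) and 57.2, 62.2 and 68.6 RPKM in O(-Ex) libraries (-0.30 ± 0.07, adjusted p = 0.0099). The groups of Ptbp1 did not overlap either, though 20.7% of its exon bases are shared with genes on the opposite strand. Srsf5 measured 236, 267, 268, 240 and 219 RPKM in O(+Ex) and 266, 300 and 332 RPKM in O(-Ex) libraries (-0.30 ± 0.07, adjusted p = 0.013), with the highest O(+Ex) values just inside the O(-Ex) range. Srsf1 measured 38.2, 38.9, 33.9, 40.2 and 32.7 RPKM in O(+Ex) and 39.4, 44.3 and 55.6 RPKM in O(-Ex) libraries (-0.32 ± 0.08, adjusted p = 0.027), with overlap.

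The Srsf1 call was lost in 4 of 12 omissions of a library and that of Hnrnph1 (-0.28 ± 0.07) in 3. Sf3a3, the gene of an SF3A subunit, was the single gene called as higher: 21.4, 27.1, 25.9, 24.4 and 22.6 RPKM in O(+Ex) and 16.4, 18.1 and 21.2 RPKM in O(-Ex) libraries, without overlap (0.36 ± 0.08, adjusted p = 0.011). The number of called genes fell to 7 without O(+Ex) replicate 3 and to 8 without O(+Ex) replicate 5 or O(-Ex) replicate 4. The 3 measured haematopoietic markers summed to 51.7 to 85.4 RPKM in O(+Ex) and 28.5 to 58.6 RPKM in O(-Ex) libraries, and none of them was called. Endothelial markers summed to 67.1 to 98.9 RPKM in O(+Ex) and 52 to 82.8 RPKM in O(-Ex) libraries, and pericyte and smooth muscle markers to 186 to 246 RPKM in O(+Ex) and 148 to 202 RPKM in O(-Ex) libraries. The called markers were Kdr (0.93 ± 0.27) and Acta2 (0.55 ± 0.12) as higher and Myh11 (-0.53 ± 0.16) and the MuSC marker Sdc4 (-0.32 ± 0.10) as lower. The part of these markers in the changes was not tested.

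In young mice, Y(+Ex) over Y(-Ex), no splicing factor gene was higher and 3 were lower, 2.83% in all, where 1.12% of all genes were called, 0.406% as higher and 0.714% as lower. Srsf1 measured 22.2, 22.2 and 24.3 RPKM in Y(+Ex) and 28, 32.7 and 35.7 RPKM in Y(-Ex) libraries (log2 change -0.48 ± 0.10, adjusted p = 0.023). Hnrnpab measured 47.9, 45.8 and 52.2 RPKM in Y(+Ex) and 57, 65.6 and 73.8 RPKM in Y(-Ex) libraries (-0.41 ± 0.10, adjusted p = 0.038). Srsf7 measured 228, 223 and 234 RPKM in Y(+Ex) and 268, 273 and 301 RPKM in Y(-Ex) libraries (-0.28 ± 0.06, adjusted p = 0.035). In all 3 called genes the groups did not overlap, and how often this occurred over all genes was not counted. The 4 Schwann markers summed to 16.7 to 17.9 RPKM in Y(+Ex) and 19.1 to 28.8 RPKM in Y(-Ex) libraries, with Mbp called as lower (-0.71 ± 0.13), and their part was not tested. The calls depended on single libraries: 5 genes were called without Y(-Ex) replicate 3, 1 without Y(-Ex) replicate 2, 4, 5 or 6, and 0 without Y(+Ex) replicate 1 or 2.

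**Figure D4:**
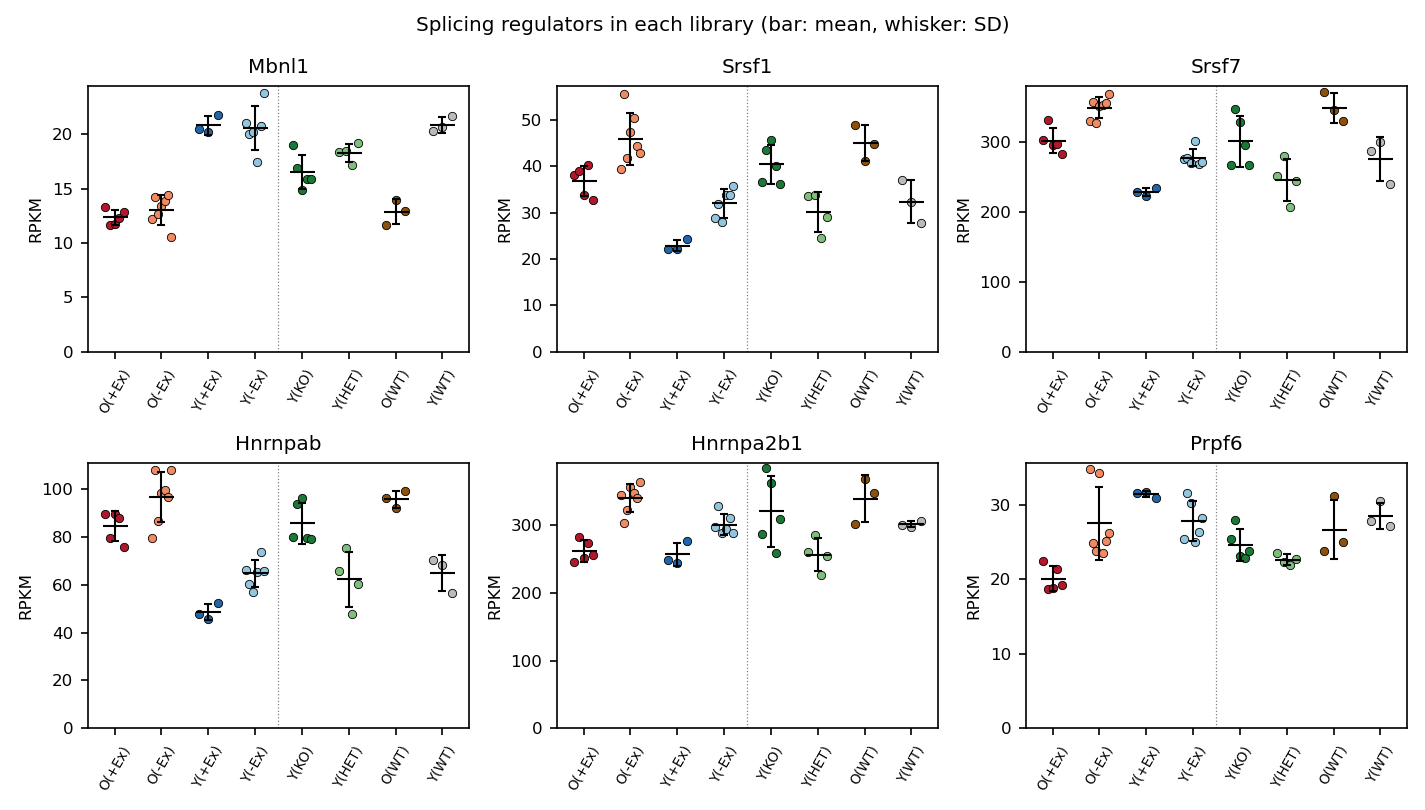
Each panel shows the RPKM (linear axis from 0) of 1 splicing regulator in every library of the 8 groups, with the mean as a bar and the SD as whiskers; the dotted line separates the wheel cohort from the Ccnd1 cohort. Srsf1 lies at 32.7 to 40.2 RPKM in O(+Ex), 39.4 to 55.6 in O(-Ex), 22.2 to 24.3 in Y(+Ex) and 28 to 35.7 in Y(-Ex) libraries, and every old library lies below every young library for Mbnl1.

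The change on running was then compared between ages, as the O(+Ex) over O(-Ex) change minus the Y(+Ex) over Y(-Ex) change. No splicing factor gene was called by limma, where 0.00882% of all genes were. At an unadjusted p under 0.05 there were 5 of the 106 genes (4.72%), against 8.47% of all genes. The lowest p belonged to Prpf6, with a difference of -0.62 ± 0.15 on the log2 scale (adjusted p = 0.31). It averaged 20.1 ± 1.74 RPKM in O(+Ex), 27.5 ± 4.9 RPKM in O(-Ex), 31.5 ± 0.425 RPKM in Y(+Ex) and 27.8 ± 2.7 RPKM in Y(-Ex) libraries. Sf3a3 (0.40 ± 0.13, adjusted p = 0.43) and Snrpa1 (0.29 ± 0.11, adjusted p = 0.52) came next.

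In the Ccnd1 cohort, Y(KO) over Y(WT), 12 splicing factor genes were higher and 1 was lower, 12.3% in all, where 6.99% of all genes were called, 5.05% as higher and 1.94% as lower. The Sm and snRNP genes made up 7 of the 12: Snrpg, Snrpe, Snrpd2, Snrpd1, Snrpf, Snrpb2 and Snrpc. Snrpg measured 25.3, 24.8, 28.5, 17.2 and 27.4 RPKM in Y(KO) and 14.5, 14.5 and 17.5 RPKM in Y(WT) libraries (log2 change 0.66 ± 0.17, adjusted p = 0.038). Snrpe measured 20.9, 19.3, 24.6, 19.6 and 27.3 RPKM in Y(KO) and 14.6, 14.5 and 15.9 RPKM in Y(WT) libraries (0.56 ± 0.13, adjusted p = 0.024). Y(KO) replicate 4 lies within the Y(WT) range for Snrpg, and the Snrpe groups did not overlap. Snrpd2 measured 15.7, 12.4, 14.2, 14.2 and 16.1 RPKM in Y(KO) and 10.2, 9.04 and 10.8 RPKM in Y(WT) libraries (0.54 ± 0.11, adjusted p = 0.015). Snrpd1 measured 73.6, 73.6, 79.9, 68 and 92 RPKM in Y(KO) and 54.7, 54.3 and 50.7 RPKM in Y(WT) libraries (0.53 ± 0.13, adjusted p = 0.032). Both were free of overlap.

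Rbm17 measured 21.2, 20.2, 22.5, 22.1 and 26.3 RPKM in Y(KO) and 17.1, 15.4 and 13.6 RPKM in Y(WT) libraries (log2 change 0.55 ± 0.10, adjusted p = 0.0098). Rbm34 measured 6.19, 5.84, 7, 7.18 and 7.41 RPKM in Y(KO) and 4.59, 5.18 and 4.19 RPKM in Y(WT) libraries (0.53 ± 0.12, adjusted p = 0.021). In both genes every Y(KO) library lay above the Y(WT) libraries. Srsf9 (0.47 ± 0.13), Sf3b6 (0.43 ± 0.10) and Prpf3 (0.30 ± 0.08), which encodes a U4/U6 protein, were the other genes called as higher. Mbnl1, the single gene called as lower, measured 19, 16.9, 14.9, 15.9 and 15.9 RPKM in Y(KO) and 20.3, 20.7 and 21.7 RPKM in Y(WT) libraries, without overlap (-0.34 ± 0.09, adjusted p = 0.033). The Y(WT) libraries serve this comparison and the age comparison of the cohort, so the changes of the 2 are not independent. The fibro-adipogenic markers summed to 130 to 178 RPKM in Y(KO) and 104 to 137 RPKM in Y(WT) libraries, though Pdgfra among them went the other way (-0.42 ± 0.25). Endothelial markers summed to 66.7 to 78 RPKM in Y(KO) and 49.2 to 68 RPKM in Y(WT) libraries. Myofibre markers summed to 89.9 to 127 RPKM in Y(KO) and 125 to 266 RPKM in Y(WT) libraries. The 9 MuSC markers had a median log2 change of -0.27. None of these markers was called, and their part in these changes was not tested. Leaving out a library moved the count of 13 called genes to 2 (Y(WT) replicate 2 or 3), 4 (Y(KO) replicate 3 or 5) or 5 (Y(WT) replicate 1). Rbm17, Snrpd2 and Rbm34 each lost their call in 1 of 8 omissions, Snrpe and Snrpd1 in 5, and Snrpg and Mbnl1 in 6.

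In the comparison of Y(HET) with Y(WT), 1 splicing factor gene was higher and 6 were lower, 6.6% in all, where 5.39% of all genes were called, 1.98% as higher and 3.4% as lower. With median-of-ratios scaling of the libraries, 1 was higher and 1 lower. Rbm20, which encodes a splicing regulator of titin, measured 6.35, 7.05, 8.46 and 5.95 RPKM in Y(HET) and 9.92, 9.97 and 10.7 RPKM in Y(WT) libraries (log2 change -0.56 ± 0.13, adjusted p = 0.031). U2af2 measured 11.6, 11.2, 10.9 and 12.7 RPKM in Y(HET) and 15.4, 17.1 and 13.7 RPKM in Y(WT) libraries (-0.40 ± 0.11, adjusted p = 0.043). Neither overlapped between the groups, and both lost the call under the other scaling. Hnrnpm (-0.40 ± 0.11), Rbm18 (-0.39 ± 0.09), Hnrnph2 (-0.36 ± 0.09) and the low-level gene Rbm24 (-0.59 ± 0.15) were also called as lower, and Rbm15b (0.46 ± 0.12), whose product helps to guide RNA adenosine methylation, as higher. None of the 12 Sm and snRNP genes was called. All 4 keratinocyte markers were higher in Y(HET) libraries, as given above. The MuSC markers summed to 2120 to 2640 RPKM in Y(HET) and 2610 to 3210 RPKM in Y(WT) libraries, with Pax7 (-0.49 ± 0.13) and Myf5 (-0.95 ± 0.26) called as lower, and the pericyte marker Cspg4 (0.83 ± 0.21) was higher. The part of these markers in the changes was not tested. Leaving out a library moved the count of called genes to 0 (Y(WT) replicate 2, Y(HET) replicate 2 or 4), 2 (Y(HET) replicate 1), 3 (Y(WT) replicate 3) or 4 (Y(WT) replicate 1).

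**Figure D5:**
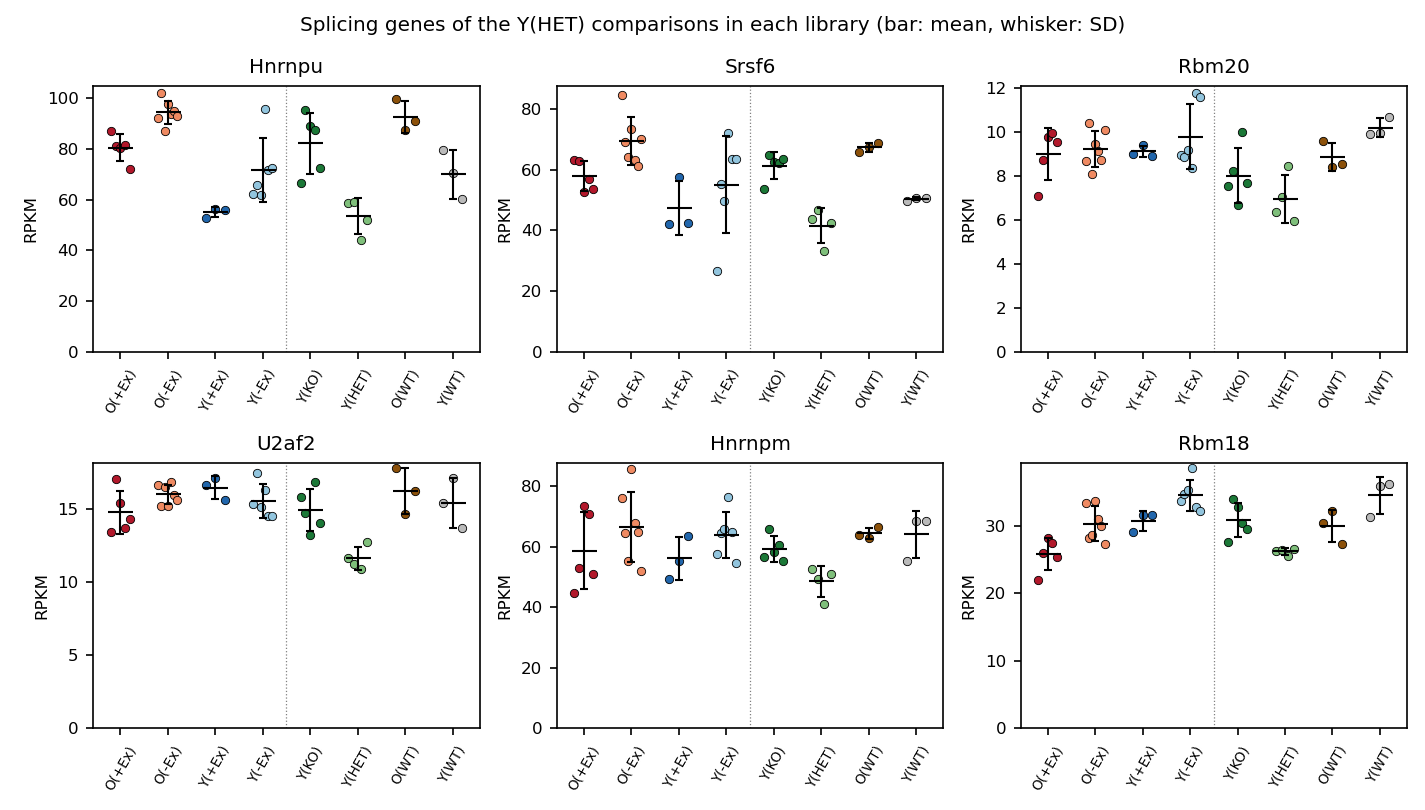
Each panel shows the RPKM (linear axis from 0) of 1 splicing factor gene called in a comparison with Y(HET), in every library of the 8 groups, with the mean as a bar and the SD as whiskers; the dotted line separates the wheel cohort from the Ccnd1 cohort. Hnrnpu lies at 66.7 to 95.3 RPKM in Y(KO), 44 to 59.1 RPKM in Y(HET) and 60.3 to 79.6 RPKM in Y(WT) libraries.

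Set against Y(HET), 14 splicing factor genes were higher in Y(KO) and none was lower, 13.2% in all, where 6.04% of all genes were called, 5.15% as higher and 0.891% as lower. The median log2 change was 0.18 for the 106 genes and 0.08 for all genes, and with median-of-ratios scaling the count was 4. Hnrnpu, the gene of a nuclear scaffold protein, measured 66.7, 95.3, 89, 87.6 and 72.5 RPKM in Y(KO) and 58.7, 59.1, 44 and 51.9 RPKM in Y(HET) libraries (log2 change 0.62 ± 0.12, adjusted p = 0.011). Srsf6 measured 53.6, 65, 62.5, 62.3 and 63.4 RPKM in Y(KO) and 43.7, 46.8, 33.2 and 42.5 RPKM in Y(HET) libraries (0.57 ± 0.09, adjusted p = 0.0042). Both were free of overlap and kept their calls in all 9 omissions of a library. Rbm34 (0.52 ± 0.11), Hnrnpab (0.47 ± 0.12), Snrpf (0.46 ± 0.10) and Snrpd1 (0.46 ± 0.12) followed. The Hnrnpab and Snrpd1 calls were lost in 5 and 7 of 9 omissions and with median-of-ratios scaling. Rbm34 and Snrpf kept theirs in every omission and with that scaling. The remaining called genes were Snrpd2, Snrpa1, Srsf1, Srsf11, Prpf31, Prpf4b, Sf3a2 and U2af2. All 4 keratinocyte markers were lower in Y(KO) than in Y(HET) libraries, the fibro-adipogenic markers summed to 130 to 178 RPKM in Y(KO) and 109 to 128 RPKM in Y(HET) libraries, and their part was not tested. Leaving out a library moved the count to 4 (Y(HET) replicate 3), 5 (Y(HET) replicate 4), 6 (Y(HET) replicate 1), 7 (Y(KO) replicate 3), 8 (Y(KO) replicate 4) or 9 (Y(KO) replicate 2).

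The lists of other splicing genes were counted in the other comparisons as well, as a description without a test. Of 65 spliceosome components, 6 were higher and none lower in Y(KO) over Y(WT), where 5.05% of all genes were higher and 1.94% lower, among them Lsm2 (0.60 ± 0.10) and Pdcd7, a gene of the minor spliceosome (0.80 ± 0.15). Of 16 snRNP assembly genes, 4 were higher, among them Wdr77 (0.55 ± 0.09) and Smn1 (0.60 ± 0.13), and Snupn, which encodes the snRNP import adaptor snurportin (-0.39 ± 0.09), was lower. In O(WT) over Y(WT), 15 of the spliceosome components and 6 of the snRNP assembly genes were higher, against 8.03% of all genes, with Lsm2 at 0.75 ± 0.11 and Smn1 at 0.81 ± 0.14. On wheel running in old mice 3 of the 65 spliceosome components were higher, near the 4.09% of all genes. By rising p they were Slu7 (0.27 ± 0.07), Dgcr14 (0.47 ± 0.12) and Ppil1 (0.34 ± 0.10). Only 1, Snu13 (-0.28 ± 0.06), was lower, where 3.3% of all genes were. On running in young mice 1 was higher, again Ppil1 (0.63 ± 0.12), and 1 was lower, again Snu13 (-0.34 ± 0.07). Over all genes 0.406% were higher and 0.714% lower there. Of the 16 snRNP assembly genes, 2 were higher on running in old mice, Clns1a (0.27 ± 0.07) and Lsm10 (0.39 ± 0.11), and none was lower. In young mice none of these was called. Of the 54 other regulators none was higher and 1 was lower at each age: Srrm1 in old (-0.24 ± 0.07) and Sfpq in young mice (-0.47 ± 0.11). None of the SR protein kinase genes was called on running at either age. In Y(KO) over Y(HET), 7 of the spliceosome components, 2 of the snRNP assembly genes and 5 of the other regulators were higher. No gene of these lists was lower, where 5.15% of all genes were higher and 0.891% lower. In Y(HET) over Y(WT), 1 spliceosome component was higher and 3 were lower, and 1 other regulator was lower. No snRNP assembly gene was called there, where 1.98% of all genes were higher and 3.4% lower. The lists were not recounted with median-of-ratios scaling.

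Many splicing factor genes make transcripts that are annotated as not coding for the full protein. SR and hnRNP genes are known for exons or introns whose inclusion sends the transcript to nonsense-mediated decay. In GENCODE M21, 51 of the 106 genes (48.1%) have a transcript annotated for nonsense-mediated decay, against 27.5% of all genes measured, and 78 (73.6%) have one with a retained intron, against 57.8%. Their median number of annotated transcripts was 6.5, against 5 for all genes. The gene-level RPKM sums these forms. Exons of other genes overlap those of 44 of the 106 genes, and for 17 the overlap exceeds 10% of exon bases.

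The authors' deposited table also gives a correlation coefficient of each gene with Ccnd1, without saying over which libraries. In the authors' deposited table the median for the 106 genes was -0.13 (range -0.71 to 0.52), and that for all genes was 0.01. The lowest values in the authors' deposited table were those of Hnrnpd (-0.71), which encodes the AU-rich element binding protein AUF1, Prpf4 (-0.64) and Rbm25 (-0.62). The highest were those of Rbm24 (0.52), Snrpn (0.51) and Sf3a1 (0.47) in the authors' deposited table.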

How the data were processed

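RNA of sorted MuSCs (10 ng) was reverse transcribed from oligo(dT) primers and sequenced as 101-base paired reads, per the labels' protocols. The submitters' processing notes name Trim Galore, STAR, featureCounts (Subread) and the genome build mm10, without versions; the strand setting was not given in the sources used here. The authors deposited RPKM of 11337 genes in 36 libraries, and a Ccnd1 correlation as a score. The centred log2 matrix has rank 29 where 35 is possible, so 6 directions had been removed, by a method the sources do not give.

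Here log2 RPKM without a pseudocount was fitted with limma 3.58.1 (R 4.3.3, trended and robust variance), 1 mean per group within each cohort, and p-values were adjusted over all genes. The members and lists were chosen with earlier results of these data known. The text names the 2 highest genes of each family, all Celf, Mbnl, Rbfox and Ptbp genes, and in each comparison up to 6 called genes per direction with the largest change at a mean of at least 5 RPKM (for the difference of wheel effects, the 3 with the lowest p); the rest are named to account for a count. Of the other lists, up to 2 genes per direction with the lowest p are named, and Ppil1 in addition for running in old mice. The fit was tested on data simulated with independent noise and no direction removed. That test cannot show how the missing directions affect the calls. Alternatives were another scaling, a pseudocount of 1, a filter at 1 RPKM, other sample sets, a replicate block and each library left out. GENCODE M21 gave positions and exon overlaps.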

Additional observations from a re-analysis of the deposited data

Results flagged for a closer look

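The named genes were checked for a library far from the others of its group, in groups of 4 to 10 libraries. Of 220 gene and group pairs 8 had such a library, where chance flags about 5%. Y(-Ex) replicate 4 was the high library for Hnrnpu, with 95.9 RPKM against 61.9 to 72.6 RPKM in the others, and for Srsf7, with 301 RPKM against 268 to 277 RPKM. In O(-Ex), replicate 1 was high for Rbm17 (26.5 RPKM, others 21.3 to 23.1) and replicate 3 was low for Snrpd1 (74.7 RPKM, others 87 to 95.9). In Y(KO), replicate 5 was high for Snrpf (16.5 RPKM, others 13.7 to 14.3), replicate 4 was low for Rbfox2 (8.88 RPKM, others 10.4 to 10.8) and replicate 1 was low for Srsf6 (53.6 RPKM, others 62.3 to 65). O(+Ex) replicate 2 was high for Rbfox1 (1.24 RPKM, others 0.752 to 0.815).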

How the results depend on the processing

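Counts of called genes, with 1 library left out in turn, ran from 46 to 52 (main 51) for age in the wheel cohort, 7 to 13 (13) for running in old mice, 0 to 5 (3) for running in young mice, 0 to 0 (0) for the difference of the wheel effects, 2 to 13 (13) for Y(KO) over Y(WT), 0 to 6 (7) for Y(HET) over Y(WT), 4 to 13 (14) for Y(KO) over Y(HET) and 10 to 17 (21) for age in the Ccnd1 cohort. With median-of-ratios scaling the count was 2 for Y(HET) over Y(WT) and 4 for Y(KO) over Y(HET); over all genes that scaling gave 272 higher of 459 called, 213 of 343, and 438 of 705 for Y(KO) over Y(WT), where the deposited scale gave 225 of 611, 584 of 685, and 573 of 793. A fit over all 36 libraries gave 1 for running in young mice and 23 for Y(KO) over Y(HET). With the 2 compared groups alone the counts were 0 for running in young mice, 6 for Y(KO) over Y(WT), 0 for Y(HET) over Y(WT), 5 for Y(KO) over Y(HET) and 12 for age in the Ccnd1 cohort; that fit has fewer libraries. A replicate block gave 8 for running in old mice, 0 for running in young mice, 0 for Y(KO) over Y(WT), 1 for Y(HET) over Y(WT) and 3 for Y(KO) over Y(HET). The replicate numbers were not taken to pair the mice, since same-numbered libraries deviated together by correlations of only -0.26 to 0.30. In running in old mice these correlations were -0.15 to 0.30, and 6 of 10 libraries correlated best with their own number. In running in young mice they were -0.01 to 0.04, and 4 of 6 libraries did so. The block left 47 called genes for age in the wheel cohort and 15 for age in the Ccnd1 cohort. Over all genes, the 2 groups alone gave 22 calls for running in young mice (main 127), 379 for Y(KO) over Y(WT), 300 for Y(HET) over Y(WT) and 327 for Y(KO) over Y(HET), and the block gave 14, 1, 179 and 262 in the same order; for the difference of the wheel effects a pseudocount of 1 RPKM gave 2 (main 1). The cause of the other moves was not tested. A pseudocount of 1 RPKM and a filter at 1 RPKM changed no call among the 52 gene results recomputed, though the pseudocount gave 12 called genes for running in old mice. Of 839 recomputed values for these results none changed sign, and 174 were no longer called. The depth of each library is unknown, so no counting error could be given.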
